A study of Mus musculus with 6 samples.

Results

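The clustered histone genes, whose symbols begin with Hist1h, Hist2h, Hist3h or Hist4h, made up 69 of the 24537 genes in the files. The 69 were taken by symbol alone, but this family was chosen for study with earlier results of these data known. The 6 RNA-seq libraries were of cerebellum RNA from male mice aged 6 weeks: 3 of the wild type (WT, strain C57BL/6) and 3 of Reln heterozygotes, which carry 1 null allele (HET, strain Orl/BalbC). Every WT and HET library differed in strain label too, so genotype and strain cannot be told apart. Whether each library is 1 animal is not stated, so p-values measure the spread between these libraries, which may be technical. Reln, which encodes the secreted protein reelin, stood at 0.834, 0.771 and 0.940 FPKM in WT and at 0.531, 0.509 and 0.580 FPKM in HET replicates 1, 2 and 3 (two-sided exact permutation p = 0.1, the smallest that 3 against 3 libraries allow). FPKM, the authors' unit, divides the fragments of a gene by its exon length and by the size of the library.

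Histones are the proteins that package DNA. H2A, H2B, H3 and H4 are the core histones and enter each nucleosome in equal numbers, and H1 is the linker histone that binds where DNA enters and leaves it. Clustered histone genes are called replication-dependent because their mRNA accumulates in S phase, when new DNA must be packaged, and is degraded when replication stops. Their mRNAs mostly end in a conserved stem-loop in place of a poly(A) tail, so libraries made from total RNA hold them and poly(A)-selected libraries largely do not. Non-dividing cells draw chiefly on replacement variants such as H3.3, whose genes lie outside the clusters and give polyadenylated mRNA. Some clustered genes also give polyadenylated mRNA in differentiated cells. The libraries here were made with a total RNA kit, per the labels, from a tissue in which most neurons have left the cell cycle by this age.

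The 69 genes were 6 for H1, 19 for H2A, 19 for H2B, 12 for H3 and 13 for H4. The Hist1 cluster held 55 of them, on chromosome 13, with all 6 H1 genes (coordinates are RefSeq on GRCm38, the assembly also called mm10). Within it, 18 genes lay at 21715711 to 21837530, 5 at 22035122 to 22043658 and 29 at 23531044 to 23764412. The testis pair Hist1h2ba and Hist1h2aa lay apart at 23933725 to 23934913, and the pseudogene Hist1h2al at 51200084 to 51203066. Hist2 held 10 genes on chromosome 3 (96219885 to 96270192), Hist3 held 3 on chromosome 11 (58948911 to 58955192) and Hist4 held 1 on chromosome 6 (136803993 to 136804431). All 69 matched a RefSeq gene under an older symbol, and 2, Hist1h2al and Hist3h2bb-ps, were annotated as pseudogenes.

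The sequence these genes share is the stem-loop at the end of their mRNA, which Slbp, the stem-loop binding protein, recognises. It was searched for in GENCODE M21 transcripts as a stem of 6 base pairs (GG, then any pair of pyrimidines, then CT, with its complement) around a loop of 4 bases, TTT and any base. It was present in 44 of the 69 genes (63.77%) and in 5 of 55272 other genes (0.01%). A gene without it may have a transcript model that ends before it, or a loop with letters other than those searched. The 6 forms found are shown to set the H4 genes beside the others, written 5′ to 3′ with the loop in capitals.
Form in 26 genes of H1, H2A, H2B and H3: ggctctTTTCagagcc
Form in 6 genes of H1, H2B and H3: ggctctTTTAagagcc
Form in Hist2h2ac: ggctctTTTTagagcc
Form in 7 H4 genes: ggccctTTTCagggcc
Form in Hist1h4i and Hist2h4: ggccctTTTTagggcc
Form in Hist1h4b and Hist1h4j: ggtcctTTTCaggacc
Every H4 loop found had 1 of the last 3 forms, and no gene of another class did. Hist1h1c, Hist1h1d and Hist1h1e had the most frequent form, as did Hist1h2ac and Hist3h2a, while Hist1h3e and Hist1h3f had the form ending its loop in A. In 22 of the 44 genes the annotated transcript ran more than 100 bases past the loop, and in 22 it did not.

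Promoters were compared next, because the H1 genes lay together in the comparison of the groups described below. RefSeq promoters of GRCm38.p6, 250 bases before to 50 after each start, were on hand for 62 of the 69 genes and were searched on both strands for 4 motifs, none of which contains another. The TATA box was searched as TATAAA and the CCAAT box by its own letters. The octamer was searched as ATTTGCAT. The H1 box was searched as AAACACA. It was found in 5 of 6 H1 promoters and in 7.18% of 32851 RefSeq promoters. The share of all 62, 14.52%, includes the H1 promoters. Among the other classes it was found in 2 of 18 H2A and 2 of 16 H2B promoters and in no H3 or H4 promoter. The motif bears the name of H1 genes, so its presence in them is a description and not a test. The 130 bases before the start of the 6 H1 genes are shown with every match in capitals, written 5′ to 3′ in the direction of the gene, so that ATTGG is CCAAT on the other strand.
Hist1h1a promoter, chr13:23763538-23763667 (plus strand): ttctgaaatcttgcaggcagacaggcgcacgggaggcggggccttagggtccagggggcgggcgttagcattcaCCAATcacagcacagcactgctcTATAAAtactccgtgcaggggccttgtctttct
Hist1h1b promoter, chr13:21780626-21780755 (minus strand): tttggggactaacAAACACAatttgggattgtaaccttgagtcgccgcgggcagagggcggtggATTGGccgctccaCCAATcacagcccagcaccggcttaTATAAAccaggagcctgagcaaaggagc
Hist1h1c promoter, chr13:23738677-23738806 (plus strand): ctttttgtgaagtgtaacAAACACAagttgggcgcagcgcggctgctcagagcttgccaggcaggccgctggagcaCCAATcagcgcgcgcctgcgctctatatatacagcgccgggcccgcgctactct
Hist1h1d promoter, chr13:23554902-23555031 (plus strand): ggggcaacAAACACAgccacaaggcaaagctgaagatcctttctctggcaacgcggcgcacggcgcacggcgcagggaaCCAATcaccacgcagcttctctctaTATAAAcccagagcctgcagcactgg
Hist1h1e promoter, chr13:23622559-23622688 (minus strand): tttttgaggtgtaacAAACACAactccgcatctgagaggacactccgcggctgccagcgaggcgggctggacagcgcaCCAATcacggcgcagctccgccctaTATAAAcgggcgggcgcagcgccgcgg
Hist1h1t promoter, chr13:23695681-23695810 (plus strand): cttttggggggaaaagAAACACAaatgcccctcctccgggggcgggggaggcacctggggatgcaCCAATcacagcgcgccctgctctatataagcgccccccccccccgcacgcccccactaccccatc
Each had CCAAT 51 to 66 bases before the start, and all but Hist1h1a had AAACACA 112 to 122 bases before it. TATAAA was found in 4 of the 6 windows. CCAAT was found in 100% of the H1, H2A, H2B and H3 promoters, in 25% of the 12 H4 promoters and in 37.41% of all promoters. TATAAA was found in 56.45% of the histone promoters against 13.62% of all. ATTTGCAT was found in 7 of 18 H2A and 7 of 16 H2B promoters, in no H1, H3 or H4 promoter, and in 1.74% of all. The promoters of the 2 most abundant members are shown for the contrast between an H4 and an H2A gene.
Hist1h4d promoter, chr13:23581438-23581567 (plus strand): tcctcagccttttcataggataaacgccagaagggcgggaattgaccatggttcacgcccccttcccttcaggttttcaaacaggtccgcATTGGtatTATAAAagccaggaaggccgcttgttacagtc
Hist3h2a promoter, chr11:58954555-58954684 (plus strand): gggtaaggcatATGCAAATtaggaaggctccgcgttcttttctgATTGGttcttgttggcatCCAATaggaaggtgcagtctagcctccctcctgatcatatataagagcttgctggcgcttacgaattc
Hist1h4d had TATAAA and CCAAT within 40 bases of the start. Hist3h2a had CCAAT on both strands and, 119 bases before the start, ATTTGCAT on the other strand, but not TATAAA. Matches are letters found in these windows, not binding sites.

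The libraries differed in choroid plexus RNA: WT replicates 1 and 3 and HET replicate 2 had 150 to 273 FPKM of Ttr, the transthyretin gene, and the other 3 had at most 6.43 FPKM. Levels of the 69 genes ranged from genes listed at 0 to a mean of 222 FPKM. Averaged over the libraries, 43 reached 1 FPKM, 18 of them 10 FPKM, and 26 did not. The 5 highest genes, Hist1h4d, Hist3h2a, Hist1h4h, Hist4h4 and Hist2h4, held 51.2% of the summed FPKM of all 69, and the 10 highest held 77.2%. Of these 5, 4 encode H4, and they came from all 4 clusters. Low genes were mostly of H2A and H2B, where 12 of 19 and 8 of 19 lay under 1 FPKM, against 1 of 13 for H4. Hist1h2aa, a testis gene, was listed at 0 in every library, and its neighbour Hist1h2ba and the testis linker gene Hist1h1t were at or near 0.

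**Figure D1:**
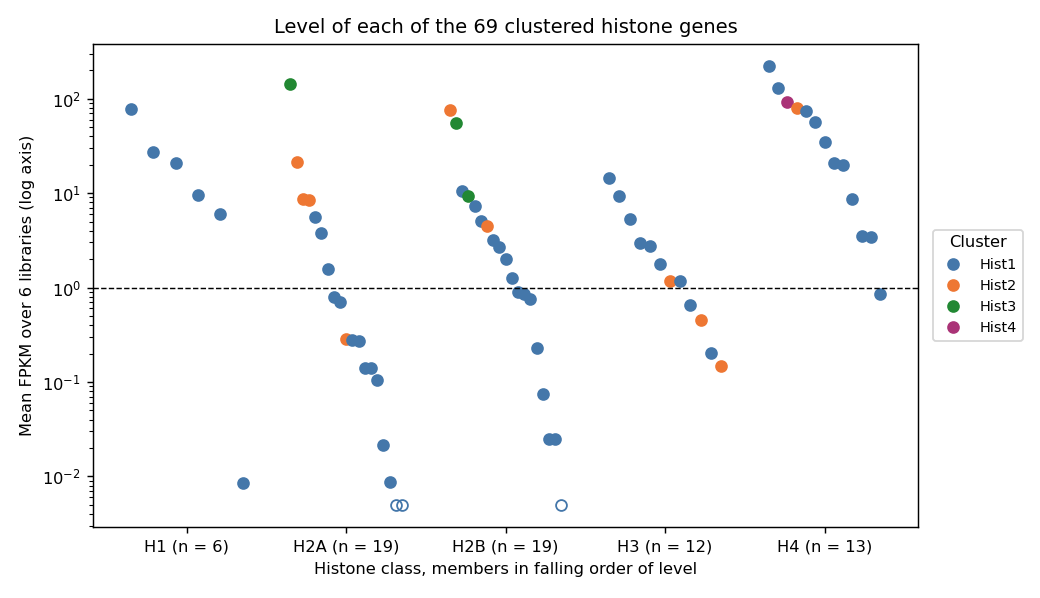
Mean FPKM over the 6 libraries (log axis) of each of the 69 genes, by histone class and coloured by cluster, with the 1 FPKM minimum as a dashed line; open circles are means under 0.005 FPKM, drawn at that value. H4 genes crowd the top, with 12 of 13 above the line, while 12 of 19 H2A genes lie below it.

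Hist1h4d, which encodes H4 (chromosome 13, 23581568 to 23581969), stood at 238, 208 and 186 FPKM in WT and at 252, 210 and 238 FPKM in HET replicates 1, 2 and 3. Hist3h2a, an H2A gene (chromosome 11, 58954685 to 58955192), followed at 156, 124 and 134 FPKM in WT and 166, 140 and 142 FPKM in HET. Both had overlapping groups. Hist1h4h, the next H4 gene, stood at 157, 127 and 109 FPKM in WT and 127, 114 and 144 FPKM in HET. Hist4h4, alone in its cluster, stood at 83.8, 99.7 and 68.1 FPKM in WT and 108, 84.1 and 113 FPKM in HET. In neither gene did the groups separate, and the order of the libraries differed between them. Hist2h4, the highest gene of Hist2, had the same 3 highest libraries as Hist4h4 (HET replicates 3 and 1 and WT replicate 2), with 72.3, 85.0 and 54.7 FPKM in WT and 91.3, 69.5 and 105 FPKM in HET. Hist3h2a overlaps a Trim17 transcript model on its own strand, so part of its reads may be counted for either gene.

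Class sums were far from equal, although core histones enter the nucleosome in equal numbers. H4 genes held 57.2% of the summed FPKM on average over the libraries, H2A 15.1%, H2B 13.8%, H1 10.8% and H3 3.1%. The H4 sum was 773, 730 and 593 FPKM in WT and 811, 733 and 839 FPKM in HET, against 49.8, 38.7 and 29.9 FPKM and 42.9, 40.6 and 41.7 FPKM for H3. H3 is also the class with the most abundant replacement genes. The replacement H3 genes H3f3b, H3f3a and Cenpa summed to a mean of 144 FPKM, 3.54 times the 40.6 FPKM of the 12 clustered H3 genes, a ratio of 2.84 to 4.42 over the libraries. For H2A the ratio went the other way, with 46.6 FPKM for 6 variant genes against 196 FPKM for the clustered genes, and for H1 the variants H1f0 and H1fx held 68.7 FPKM against 141 FPKM. No clustered H3 gene reached the level of H3f3a at 19.8 FPKM, and the highest was Hist1h3f, with 14.6, 13.7 and 11.4 FPKM in WT and 16.01, 15.5 and 16.2 FPKM in HET. H3 genes share long stretches of sequence (a median of 39.4% of read-length windows were found at no other place), and reads that fit several genes may not have been counted in full, which was not tested.

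Clusters also differed in which class they carried. Hist1 held 61.5% of the summed histone FPKM on average, Hist3 16.1%, Hist2 15.3% and Hist4 7.1%, but the 3 Hist3 genes together exceeded the 10 of Hist2 in 3 of the 6 libraries only. Within Hist3, Hist3h2a made up 68.8%. Within Hist1, the block at 23531044 to 23764412 held 50.1% of all histone FPKM, and the block at 21715711 to 21837530 held 8.4%. Of neighbouring pairs, 14 were divergent, with starts 164 to 608 bases apart, 13 of H2A with H2B and 1 of H2B with H3, and such partners can share a promoter. Partner levels were unequal. Hist3h2a averaged 144 FPKM against 9.35 FPKM for the pseudogene Hist3h2bb-ps, whose start lay 173 bases away. Hist1h2bl averaged 10.5 FPKM against 3.79 FPKM for Hist1h2ai, and Hist2h2ac 21.3 FPKM against 4.44 FPKM for Hist2h2be, whose model is far longer.

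Near-identical copies limited which genes could be told apart. A window of 73 bases, the read length after trimming, was found at no other place in GENCODE M21 for a median of 92.3% of windows in H1 genes, 57.8% in H2B, 54.1% in H4, 39.4% in H3 and 29.2% in H2A. A fixed ratio held for 3 pairs of genes in every library. Hist1h2bq and Hist1h2br were identical, Hist2h2aa1 was 30.09 times Hist2h2aa2, and Hist2h3c1 was 0.33 times Hist2h3c2. Each such pair is 1 measurement. In addition, 10 genes had a value between 0 and 0.0001 FPKM in some library, far below what 1 read is worth. All 19 H2A genes overlap a gene model on the opposite strand, and the strand setting of the authors' counting is not given in the sources used here. Steps between low values gave depths of about 22800000 to 28480000 reads per library. At those depths the clustered genes with a single exon, 64 of the 69, took about 14496 to 18991 reads, 0.0509% to 0.0705% of a library.

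Spread between libraries of a group was larger for histone genes than for most genes. Their SD of log2(FPKM + 1) within groups had a median of 0.21 against 0.13 over all tested genes. It was 0.19 for the 25 genes with at least 50% of windows unique and 0.31 for the 17 below that. The highest was 0.82 for Hist1h2bk, an H2B gene that stood at 2.40, 0.31 and 1.27 FPKM in WT and at 0.97, 2.67 and 2.43e-05 FPKM in HET. Among classes, H3 had the largest median at 0.37, and H2A, H2B, H1 and H4 lay between 0.17 and 0.21. The test below borrows its standard errors largely from genes of like level, which can make them too small for these genes.

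**Figure D2:**
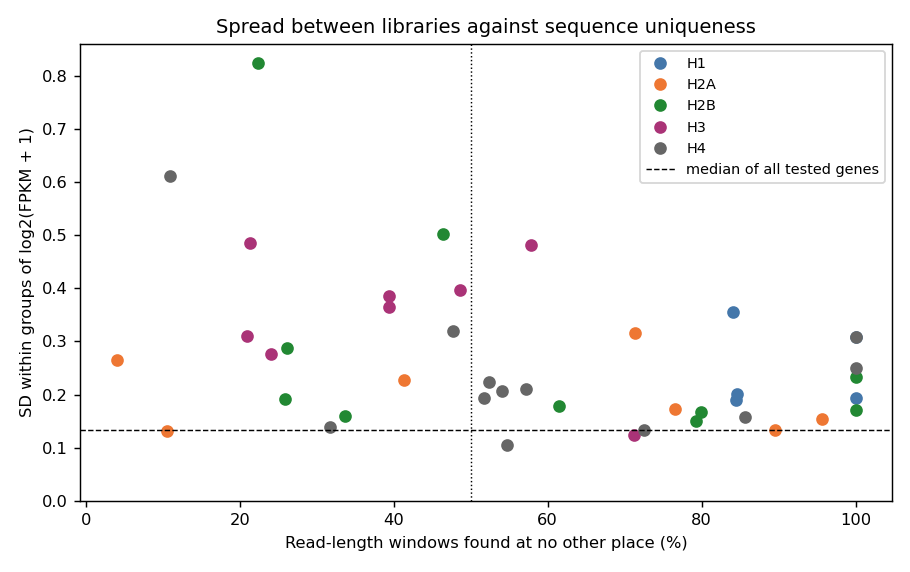
SD of log2(FPKM + 1) within groups of each tested histone gene against the percentage of its read-length windows found at no other place, coloured by class, with the median over all tested genes as a dashed line. The highest values, up to 0.82, lie left of the dotted line at 50%, and most genes at either side lie above the dashed line.

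The comparison of HET with WT asked whether histone genes differed between the groups. It was fitted by limma on log2(FPKM + 1) for the 6358 genes averaging 1 FPKM or more, of which 43 were histone genes. No histone gene passed an adjusted p of 0.05 in limma (Benjamini-Hochberg over all 6358), and 0.0786% of all genes did. Means were higher in HET for 36 of the 43, 83.7%, about the share of all tested genes (83.1%). The median log2 difference was 0.21 for histone genes and 0.083 for all. At an unadjusted p under 0.05, 15 of 43 histone genes (34.9%) were higher in HET, against 2.58% of all genes, and 1 was lower, against 0.755%. Every HET library lay above every WT library for 13 of the 43 (30.2%), against 4.81% of all tested genes. None had every HET library below every WT library, against 0.739%. The 13 were Hist1h1b, Hist1h1c, Hist1h1e, Hist1h2ac, Hist1h2bb, Hist1h2bg, Hist1h2bl, Hist1h3f, Hist1h4a, Hist1h4i, Hist1h4j, Hist2h2bb and Hist3h2ba, which are of all 5 classes.

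These counts depended on how the libraries were scaled. Median-of-ratios scaling divides each library by the median ratio of its genes to their mean, here by 0.84 for WT replicate 2 up to 1.14 for HET replicate 2. After it, 49.1% of all genes and 34 of the 43 histone genes had a higher mean in HET, with a median of 0.11 for histone genes and -0.0014 for all. After the scaling 4 histone genes were higher at an unadjusted p under 0.05, against 2.06% of all genes. The groups stayed apart for 1 histone gene, Hist1h1b, with HET above WT, against 5.74% of all genes.

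**Figure D3:**
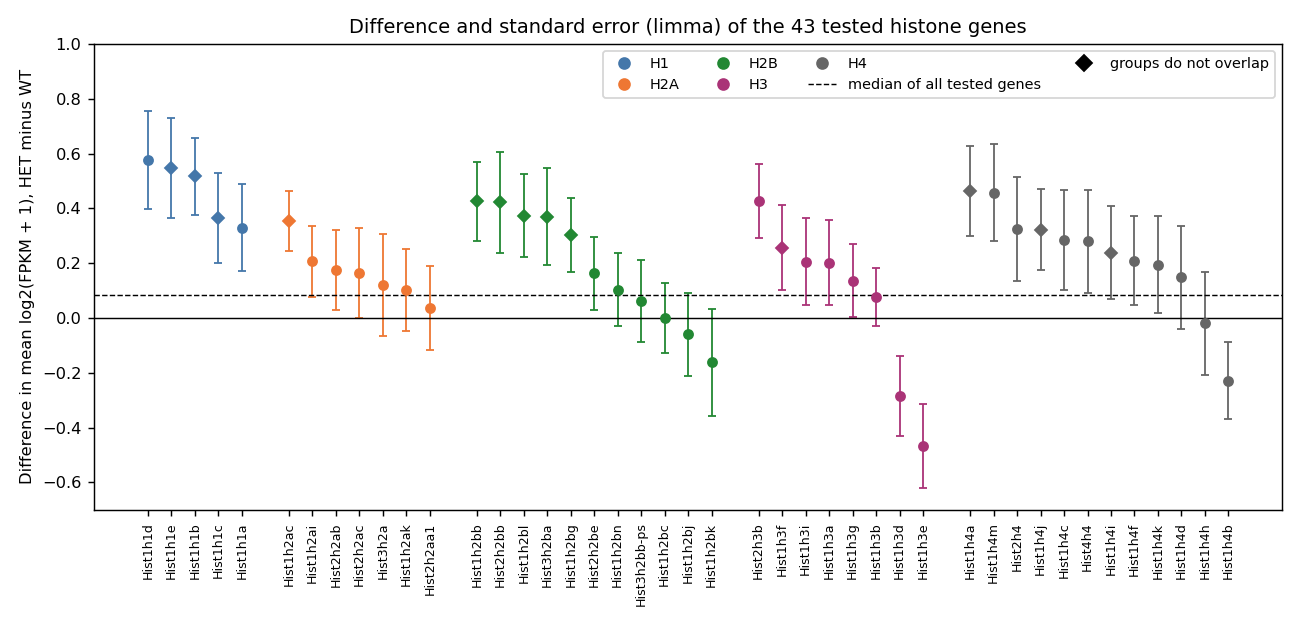
Difference in mean log2(FPKM + 1), HET minus WT, with its standard error from limma, for the 43 tested histone genes in falling order within each class; diamonds mark genes whose groups do not overlap. All 5 H1 genes lie above the dashed median of all tested genes, and Hist1h3e, at -0.47, is the lowest.

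Linker histone genes stood highest among the classes. All 5 tested H1 genes had a higher mean in HET, against 83.1% of all tested genes. All 5 also did after median-of-ratios scaling, against 49.1% of all, and after quantile normalization. The medians were 0.52, 0.42 and 0.38. As deposited, each had an unadjusted p under 0.05 in limma, where 2.58% of all tested genes were higher at that threshold. After median-of-ratios scaling 3 of the 5 did, against 2.06% of all. Hist1h1d (limma unadjusted p = 0.11) and Hist1h1a (0.38) then did not. None passed the adjusted threshold. The testis gene Hist1h1t, not tested, had 1 read in WT replicate 2 and was listed at 0 elsewhere. Hist1h1d (chromosome 13, 23555032 to 23555807) encodes linker histone H1.3 and stood at 17.6, 28.9 and 18.9 FPKM in WT and 33.1, 40.5 and 24.95 FPKM in HET. WT replicate 2 lay above HET replicate 3, so the groups overlapped. The log2 difference of 0.58 (SE 0.18, limma adjusted p = 0.52) was rank 1 of 6358 tested genes in size toward HET. Hist1h1e (23621777 to 23622558), which encodes H1.4, stood at 58.5, 71.0 and 58.3 FPKM in WT and 92.9, 107 and 77.4 FPKM in HET, without overlap. Its difference was 0.55 (SE 0.18, limma adjusted p = 0.68), rank 3. Hist1h1b (21779832 to 21780625), which encodes H1.5, was much lower, at 5.45, 4.45 and 4.31 FPKM in WT and 6.87, 8.74 and 6.16 FPKM in HET. It had the smallest p of any histone gene, with a difference of 0.52 (SE 0.14, limma adjusted p = 0.22) and rank 6. About 94.7 to 188 reads lay behind it per library, and all of its windows were unique. Hist1h1c, which encodes H1.2, stood at 19.4, 18.2 and 16.6 FPKM in WT and 21.6, 28.8 and 20.8 FPKM in HET. Hist1h1a, which encodes H1.1 and completes the class, overlapped, at 7.14, 11.3 and 6.76 FPKM in WT and 8.76, 12.4 and 10.8 FPKM in HET.

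HET replicate 2 was the highest library for all 5 tested H1 genes, as for 56.3% of all tested genes. After median-of-ratios scaling Hist1h1d, Hist1h1e and Hist1h1b kept differences of 0.46, 0.43 and 0.42, ranks 2, 5 and 6. The H1 sum was 108, 134 and 105 FPKM in WT and 163, 198 and 140 FPKM in HET, a ratio of 1.44. Scaled, it became 100, 159 and 108 FPKM in WT against 162, 174 and 142 FPKM in HET, and WT replicate 2 then lay above HET replicate 3. H1f0, the replacement H1 gene of non-dividing cells, stood at 59.5, 61.3 and 58.8 FPKM in WT and 73.1, 83.3 and 66.8 FPKM in HET (log2 difference 0.30, limma adjusted p = 0.90). As deposited it too had HET replicate 2 as its highest library and no overlap. HET lay above WT without overlap for 4.81% of all tested genes. After median-of-ratios scaling WT replicate 2 lay above HET replicate 3 for H1f0 as well.

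**Figure D4:**
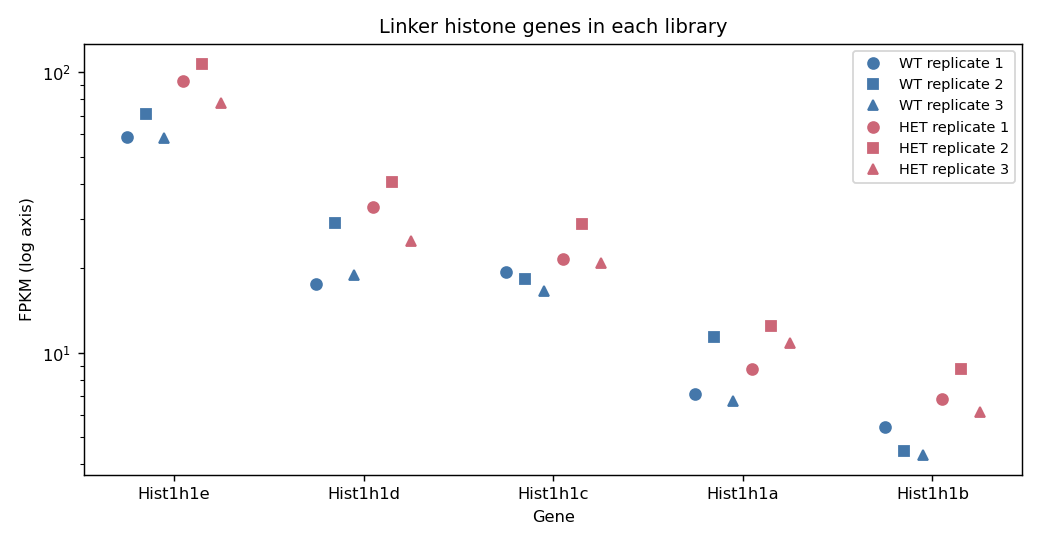
FPKM (log axis) of the 5 tested linker histone genes in each WT (blue) and HET (red) library, with replicate number as marker shape. HET replicate 2 is the highest point of each gene, reaching 107 FPKM for Hist1h1e, and WT replicate 2 lies among the HET points for Hist1h1d and Hist1h1a.

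The H2A sum was 211, 173 and 178 FPKM in WT and 222, 197 and 193 FPKM in HET, a ratio of 1.09 with overlap. Left-out libraries moved its log2 ratio of 0.13 to between 0.062 without HET replicate 1 and 0.22 without WT replicate 1. All 7 tested had a higher mean in HET as deposited, against 83.1% of all tested genes. After median-of-ratios scaling 6 did, against 49.1% of all, and after quantile normalization 4 did. The medians were 0.17, 0.052 and 0.031. As deposited 1, Hist1h2ac, had no overlap (14.3%, against 4.81% of all). Hist1h2ac (chromosome 13, 23683473 to 23683959) stood at 1.57, 1.496 and 0.77 FPKM in WT and at 1.61, 2.06 and 1.97 FPKM in HET, a difference of 0.35 (SE 0.11, limma adjusted p = 0.52) that fell to 0.18 without WT replicate 3. Those levels are about 10.7 to 27.2 reads per library, with a counting error of up to 30.6%, and 56.9% of its windows also occur in Hist1h2ag. WT replicate 1 and HET replicate 1 differed by less than that counting error. Hist2h2ac stood at 20.5, 21.6 and 17.7 FPKM in WT and 22.6, 25.8 and 19.3 FPKM in HET, with overlap. Hist2h2aa1 had a difference of 0.04, which turned to -0.07 after median-of-ratios scaling.

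By its summed ratio H2B stood next to H1. Its median gene difference of 0.16 was close to those of H2A and H3, at 0.17 each. After median-of-ratios scaling the median was 0.067 for H2B and 0.052 for H2A. Of 11 tested, 8 had a higher mean (72.7%, against 83.1% of all tested genes), and 7 did after either scaling. As deposited 5 had no overlap (45.5%, against 4.81% of all), and after median-of-ratios scaling none stayed apart. Their sum was 169, 162 and 143 FPKM in WT and 200, 234 and 179 FPKM in HET, a ratio of 1.29 without overlap. Hist2h2bb (chromosome 3, 96269700 to 96270192), the highest, stood at 66.6, 70.6 and 57.4 FPKM in WT and 84.6, 108 and 71.8 FPKM in HET (log2 difference 0.42, SE 0.18, limma adjusted p = 0.90; 0.27 without HET replicate 2). The lowest HET library was just above the highest WT library. Gm20628 and Gm42743 overlap it, so part of its reads may be theirs. Hist3h2ba stood at 49.7, 49.2 and 46.0 FPKM in WT and 62.7, 72.3 and 54.3 FPKM in HET, again without overlap. Hist1h2bb (0.43, SE 0.14, limma adjusted p = 0.72) stood at 6.91, 6.56 and 4.996 FPKM in WT and 7.98, 8.10 and 9.63 FPKM in HET. Hist1h2bl, at 9.72, 9.66 and 7.75 FPKM in WT and 11.03, 10.8 and 14.4 FPKM in HET, was highest in HET replicate 3 as well. Hist1h2bj and Hist1h2bk had lower means in HET, by -0.06 and -0.16, with wide overlap.

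H3 genes split. Of 8 tested, 6 lay higher in HET (75%, against 83.1% of all tested genes) and 2 lower, with a median of 0.17. The H3 sum had a ratio of 1.06 with overlap. Its log2 ratio of 0.081 was -0.022 without Hist1h3f, its highest gene. Hist1h3e (chromosome 13, 23561475 to 23562385) had the lowest value of all histone genes, -0.47 (SE 0.15, limma adjusted p = 0.64), and was the 1 lower gene at an unadjusted p under 0.05. It stood at 8.22, 7.40 and 3.80 FPKM in WT and at 4.32, 3.89 and 4.41 FPKM in HET. WT replicate 3 lay below every HET library, and without it the difference was -0.76 and passed (limma adjusted p = 0.012), while without WT replicate 1 it was -0.29. Hist1h3d (-0.28) stood at 3.72, 3.33 and 2.83 FPKM in WT and 3.60, 3.06 and 1.33 FPKM in HET. Hist2h3b (0.43, SE 0.13, limma adjusted p = 0.53) rested on 5.1 to 27.2 reads per library, at 0.38, 2.03 and 0.36 FPKM in WT and 1.31, 1.16 and 1.76 FPKM in HET, and its highest library was WT replicate 2. The difference was 0.24 without WT replicate 1 and 0.23 without WT replicate 3. In the other direction, Hist1h3f had no overlap and a difference of 0.26 (0.16 without WT replicate 3). Hist1h3i stood at 12.2, 7.58 and 6.58 FPKM in WT and 9.66, 9.28 and 11.03 FPKM in HET. WT replicate 1 was the highest library for 6 of the 8 H3 genes (75%), against 24.9% of all tested genes. In each other class it was the highest for 0% to 18.2% of the genes.

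H4 genes had 10 of 12 means higher in HET (83.3%), about the background share of 83.1%. Their median was 0.26. Hist1h4a, Hist1h4i and Hist1h4j, 3 of the 12, had no overlap (25.0%, against 4.81% of all). After median-of-ratios scaling 10 were again higher, against 49.1% of all. The scaled median was 0.14, and none stayed apart. As deposited the H4 sum had a ratio of 1.14 with overlap. Log2 differences of the most abundant were 0.15 (SE 0.19) for Hist1h4d, -0.02 (SE 0.19) for Hist1h4h and 0.28 (SE 0.19) for Hist4h4. Without WT replicate 3 they were 0.063, -0.15 and 0.14, and without WT replicate 1 Hist1h4d stood at 0.24 and Hist1h4h at 0.12. Hist1h4b, with 3.93, 2.51 and 5.24 FPKM in WT and 3.35, 3.36 and 2.55 FPKM in HET, had the lowest value of the class, -0.23 (SE 0.14), which was -0.45 without WT replicate 2, -0.034 without WT replicate 3 and -0.13 without HET replicate 3. By cluster, all tested genes of Hist2 (7), Hist3 (3) and Hist4 (1) had a higher mean in HET as deposited. For Hist1 25 of 32 did (78.1%), against 83.1% of all tested genes. After median-of-ratios scaling 6 of Hist2 and 2 of Hist3 did, and after quantile normalization 6 and 1. The summed ratio was 1.16 for Hist1, 1.26 for Hist2, 1.14 for Hist3 and 1.21 for Hist4. The clusters were not tested against each other, and neither were the classes.

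Over all 69 genes the summed FPKM was 1311, 1238 and 1048 in WT and 1439, 1403 and 1394 in HET. Group means were 1199 ± 136 and 1412 ± 24 FPKM (SD, n = 3 each), a ratio of 1.18 without overlap (log2 0.24, or 0.15 without WT replicate 3). WT replicate 3 was the lowest library for 29 of the 43 tested histone genes (67.4%) and for 7.57% of all tested genes. WT replicate 2 was the lowest for 6 histone genes (14%) and for 78.4% of all genes. Without WT replicate 1, 5 histone genes passed in limma (Hist1h1b, Hist1h2ac, Hist1h2bb, Hist1h3a and Hist1h3g, all higher in HET), against 62 or 0.983% of all tested genes. Without WT replicate 3 1 did, Hist1h3e, lower in HET, against 0.252% of all. Without HET replicate 1, 2 passed (Hist1h4m and Hist2h3b), against 0.299% of all. Without HET replicate 2, 1 passed (Hist2h3b), against 0.287%. Without HET replicate 3, 2 passed (Hist1h1b and Hist1h1d), against 0.659%. These were all higher in HET. Without WT replicate 2 none passed, against 0.0777%. Hist1h1b and Hist2h3b were the genes called in more than 1 of these fits.

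After median-of-ratios scaling the histone sums did not follow the groups. Scaled sums were 1213, 1473 and 1076 FPKM in WT and 1427, 1235 and 1412 FPKM in HET, a ratio of 1.08 with overlap. WT replicate 2 and HET replicates 1 and 3 were the 3 highest. The same 3 libraries were low in choroid plexus markers, with Ttr at 0.566 FPKM in WT replicate 2 and at 3.15 and 6.43 FPKM in HET replicates 1 and 3. Ttr stood at 273 and 150 FPKM in WT replicates 1 and 3 and at 156 FPKM in HET replicate 2. Summed over the 6 choroid plexus markers, libraries ranged from 0.811 to 286 FPKM in WT and from 3.66 to 163 FPKM in HET. Rpph1 and Rmrp, RNA subunits of RNase P and RNase MRP that carry no poly(A) tail, summed to 10366 FPKM in WT replicate 2 and to 8040 and 12528 FPKM in HET replicates 1 and 3. They summed to 5717, 5030 and 4150 FPKM in WT replicates 1 and 3 and HET replicate 2. The part of dissection or of RNA capture in the histone sums was not tested.

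H4 followed this order, with scaled sums of 869, 804 and 850 FPKM in the 3 libraries low in Ttr and of 715, 609 and 645 FPKM in the other 3. H2A followed it narrowly, with 206, 220 and 196 FPKM against 195, 183 and 174 FPKM. H1 and H2B did not, since HET replicate 2 was highest, at 174 and 206 FPKM. Nor did H3, in which WT replicate 1 was highest at 46.1 FPKM. Within the 3 libraries high in Ttr (2 WT, 1 HET), all 5 H1 genes were higher in HET after scaling. Their median was 0.62, and 48.9% of all tested genes were higher. Within the 3 libraries low in Ttr (1 WT, 2 HET), 2 of 5 were, against 52.1% of all, with a median of -0.03. As deposited, all 5 were higher in the set high in Ttr, against 76.7% of all, with a median of 0.76. In the set low in Ttr 3 of 5 were, against 93.0% of all, with a median of 0.21. For all 43 histone genes the scaled medians were 0.15 and -0.01, against -0.004 and 0.005 for all tested genes. As deposited the medians were 0.28 and 0.20, against 0.10 and 0.18. Among the libraries rich in Ttr the H1 value rests on HET replicate 2 alone. With 1 library in 1 arm there was no test, and the 2 sets were not tested against each other.

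**Figure D5:**
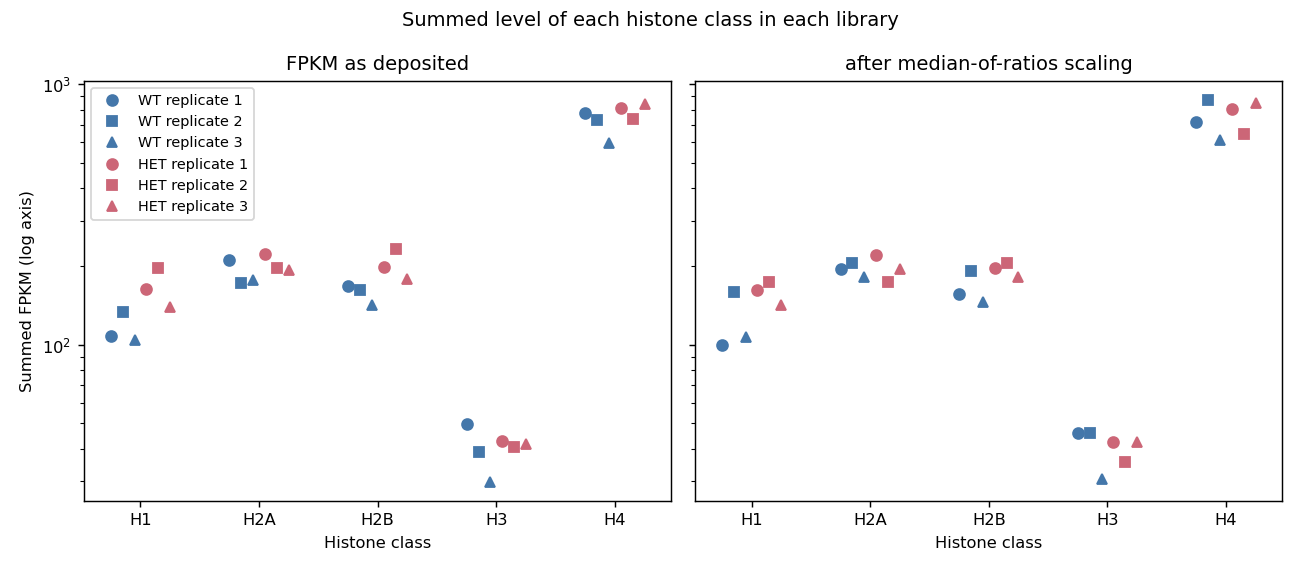
Summed FPKM (log axis) of each histone class in each library, as deposited (left) and after median-of-ratios scaling (right), with WT in blue, HET in red and the replicate number as marker shape. As deposited, H1 and H2B have every HET point above every WT point; after scaling no class does, and H4 is highest in WT replicate 2 at 869 FPKM.

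Genes that make, process and degrade histone mRNA were read from the same fit. In it, 83.1% of all tested genes had a higher mean in HET, and each count below is to be read against that share. Of 18 genes of transcription and 3′ end processing, 16 were tested, 13 had a higher mean in HET and 0 passed in limma (median 0.05). They include Slbp and Npat, the coactivator of histone transcription. The 4 most abundant were Snrpb, Srrt, Cstf2 and Lsm11, at means of 6.41, 5.68, 3.23 and 3.13 FPKM. Lsm11 belongs to the U7 particle that cuts histone pre-mRNA, and U7 RNA itself, Rnu7, was listed at 0 in every library. Of 9 tested genes of histone mRNA decay, 8 had a higher mean and 0 passed (median 0.06). Replacement variants had 9 of 9 higher, 0 passed (median 0.08), with H3f3b at 116 ± 5 FPKM in WT and 132 ± 16 FPKM in HET (SD, n = 3 each). Histone chaperones had 10 of 12 higher and 0 passed (median 0.08), led in level by Npm1 and Ssrp1. Each of these medians lay below the 0.083 of all tested genes. After median-of-ratios scaling the genes higher in HET were 7 of 16 for processing, 4 of 9 for decay, 5 of 9 for variants and 4 of 12 for chaperones, so these directions went with the scaling.

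Markers of dividing cells were mostly low, as most genes were. Of 24 such genes, 19 (79.2%) had a mean under 1 FPKM, against 74.1% of all genes in the files, and 11 (45.8%) under 0.1 FPKM, against 50.1%. Among these 11 were the proliferation marker Mki67 at 0.059 FPKM and Top2a at 0.039 FPKM, which were singled out after their values were seen. The 24 summed to 15.4 to 18.6 FPKM in WT and 17.5 to 20.1 FPKM in HET, with Pcna, a replication gene, highest at 8.75 FPKM. Mcm7, Ccne2, Mcm4 and Tyms were the other members above 1 FPKM, at 1.84, 1.79, 1.10 and 1.007 FPKM. Of the 5 tested, 4 were higher in HET as deposited, against 83.1% of all tested genes, and 0 passed in limma. After median-of-ratios scaling 1 was higher, against 49.1% of all. Atoh1, which marks granule cell progenitors, was listed at 0 in every library, and the list of 4 summed to 1.64 to 2.22 FPKM in WT and 1.77 to 2.08 FPKM in HET. Oligodendrocyte precursor markers summed to 14.9 to 19.7 FPKM in WT and 17.9 to 21.7 FPKM in HET. Most of this was Olig1, at a mean of 13.9 FPKM, and Olig2, at 3.22 FPKM. Pdgfra and Cspg4 averaged 0.598 and 0.202 FPKM. Neuronal markers of the labelled tissue summed to 458 to 566 FPKM in WT and 522 to 550 FPKM in HET, with the Purkinje cell gene Pcp2 at 155 FPKM. Microglia markers summed to 6.72 to 11.8 FPKM in WT and 9.06 to 16.8 FPKM in HET, highest in HET replicate 2, and blood markers to 58.2 to 162 FPKM and 63.0 to 108 FPKM. In bulk tissue, more cells of a type and more RNA per cell cannot be told apart, and the part of any of these cells in the histone values was not tested.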

How the data were processed

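The authors' values were FPKM, 1 library per file, with no pooling. Mitochondrial and ribosomal sequences were filtered out, 2 bases were trimmed from each 75-base single-end read, and reads were aligned to mm10 with TopHat2 and Bowtie and quantified with Cufflinks, per the labels' protocols. Per the file headers the column is named rpkm. Annotation release and strand setting: not given in the sources used here. The filter, the aligner's treatment of reads that fit several places and the lengths used can all move FPKM of short, near-identical genes. Groups came from the sample titles. The members and gene lists were chosen with earlier results of these data known.

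Genes averaging 1 FPKM or more were tested on log2(FPKM + 1) by limma 3.58.1 (R 4.3.3) with an intensity trend, HET minus WT, with Benjamini-Hochberg adjustment over all tested genes; a log2 difference on this scale understates the change of low genes. Values of 40 genes read as spreadsheet dates in HET replicate 2 and were left out; none was a histone gene. Depth came from steps between low FPKM values in intronless genes, of which 88.5% to 94.4% were whole reads within 0.05. Whole reads were not recovered for genes with introns. Read numbers are approximate, and counting errors leave out the spread between libraries. The test was tested on simulated data. Named genes were Hist1h1d, Hist1h1b and Hist1h2ac, the 3 highest of each class, the highest of each cluster, the 6 smallest p in each direction and up to 4 of each other list, with Hist1h1a added after its values were seen; members whose groups did not overlap are listed by name. Alternatives were other pseudocounts, minimums and scalings, a replicate block, no trend, and leaving out each library. Python 3.11.15 with pandas 2.3.3 was used for tables and with matplotlib 3.10.9 for plots.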

Additional observations from a re-analysis of the deposited data

How the results depend on the processing

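The number of all genes past the threshold, 5 in the comparison reported, was 0 with a minimum mean of 0.5 FPKM, with median-of-ratios scaling, with quantile normalization and without the trend, and 1 with no filter on low values; the cause was not tested. The number of histone genes past the threshold was 0 in each of these and with either other pseudocount, 0.1 or 0.5. Leaving out 1 library gave 5 to 62 of all genes and 0 to 5 histone genes past the threshold. The histone median lay between 0.13 and 0.29 in those fits and at 0.11, 0.10 and 0.10 with median-of-ratios scaling, quantile normalization and no filter, above the median of all genes each time. Chosen after seeing the data, the 25 genes with at least 50% of windows unique had a median of 0.28, with 0 past the threshold. Of these, 24 were higher in HET (96%, against 83.1% of all tested genes). After median-of-ratios scaling 23 were, against 49.1% of all, with a median of 0.16. Of the 17 genes under 50%, 12 were higher as deposited (70.6%), with a median of 0.14. The log2 ratio of the total sum moved from 0.24 to 0.11 with median-of-ratios scaling, and that of Hist3 from 0.19 to 0.34 without Hist3h2a. The H3 sum ranged from -0.08 to 0.28 when 1 library was left out. Hist2h2aa1 turned to -0.066 with median-of-ratios scaling and -0.077 with quantile normalization, which also turned Hist3h2a to -0.055. Leaving out 1 library gave ranges across 0 for Hist2h2aa1 (-0.082 to 0.21), Hist1h2bj (-0.31 to 0.22), Hist1h2bk (-0.52 to 0.31), Hist1h4h (-0.15 to 0.12) and Hist1h3d (-0.48 to 0.013). Over all 25 named genes and their alternatives, 348 values in all, 326 kept direction and call, 8 gained a call and 14 reversed. The deviations of same-numbered libraries correlated at -0.28, -0.52 and 0.14, and those of unlike-numbered libraries at -0.39 to 0.49. No sign of pairing by replicate number was seen, but 3 libraries per group cannot settle it. With the replicate block 13 of all genes passed, 3 higher and 10 lower, and 0 histone genes. A planned count test was not run, because whole reads were recovered only for intronless genes. Levels near 10 reads, as for Hist1h2ac and Hist2h3b, limit what depth can show.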
